A study of Caenorhabditis elegans with 2 samples.

Results

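The Hsp70 chaperone system of Caenorhabditis elegans was followed here through 9 genes, out of 19973 nuclear protein-coding genes in the annotation. They are the cytosolic Hsp70 genes hsp-1, F44E5.4 and F44E5.5, the endoplasmic reticulum Hsp70 genes hsp-3 and hsp-4, the mitochondrial Hsp70 gene hsp-6, the Hsp110 gene hsp-110, the BAG domain gene bag-1 and the J-domain gene dnj-9. The genes were chosen by name with the regions and signals of these data already known, so their levels are given as a description with no test. The question the assay addresses is where in the genome GEI-17, which belongs to the PIAS family of SUMO ligases, is found on chromatin.

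Chromatin was taken from whole young adults of strain OP572 at 64 h, in 2 biological replicates numbered 4 and 5, with males and females pooled and larvae synchronised by starvation at the L1 stage. The animals carry the mutation unc-119(tm4063) and the transgene wgIs572, which encodes GEI-17 with TY1, EGFP and 3xFLAG at its C-terminus beside a wild-type unc-119 copy. The protocol in the labels describes recovery of the bound DNA with an antibody to GFP before sequencing (ChIP-seq), while the antibody field of both samples names gei-17. The labels give 1 group, no animals without the tag and no second condition, and the control alignment used to call regions was not analysed here. The cells in which the tagged protein is bound cannot be told apart in whole animals.

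Hsp70 proteins bind unfolded stretches of other proteins and release them in a cycle driven by ATP. J-domain proteins deliver clients and start ATP hydrolysis, and BAG domain and Hsp110 proteins act as exchange factors that swap the spent nucleotide and reset the cycle. Each compartment has its own Hsp70, and heat raises transcription of the inducible forms through the factor HSF-1, which binds heat shock elements built of alternating GAA and TTC units.

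A gene was counted as bound when its promoter window held the summit of a region that passed the irreproducible discovery rate (IDR) criterion. The window ran from 1000 bp before to 200 bp after the annotated start. The list of these regions was derived from the alignments of both replicates, and 588 of the 598 bound genes had a summit in both. The authors deposited a signal value with each summit, whose scale is not stated and whose size is not comparable between lists, so ranks within each list are given beside it. The pooled list and each replicate list hold 30000 summits, and the 1030 summits passing IDR were the 1030 highest of the pooled list, with a lowest signal of 110.45 against 110.41 for the next summit. Neither the tagged gene gei-17 nor its window held a summit in any list, so that locus gave no check of the tag. The gene unc-119, also carried by the transgene, held 3 summits in replicate 4, the highest of signal 24.5 and rank 9032. It held none in the other lists, and its window held none in any list. The depth behind these values is unknown.

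By this definition 7 of the 9 genes were bound, through 6 separate summits, since F44E5.4 and F44E5.5 share one. An eighth gene, hsp-6, had a candidate that did not pass IDR, and hsp-4 had no candidate in the pooled list. A pooled candidate lay in the window of 6175 protein-coding genes, of which 598 were bound, or 9.68%. Over all 19973 nuclear protein-coding genes, counted with or without a candidate as the 9 members are, the share was 2.99%. These shares are set beside the count only as background, because the genes were listed with these calls known. The bound members had a median signal of 335.1 in the pooled list, against 163 for all 598 bound genes. These signals were also known when the genes were listed, and a shared summit was counted once for each gene. The median distance of the bound members from the gene start was -190 bp, against -255 bp for all bound genes. The highest summit lay upstream of the start at all 7, and at 552 (92.3%) of all bound genes. It was shared with another gene at 3 of the 7, and at 251 (42.0%) of all bound genes.

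The heat-inducible cytosolic Hsp70 genes F44E5.4 and F44E5.5 had the highest signal of the 9 genes in the pooled list and in replicate 4, but not in replicate 5, where dnj-9 and hsp-3 were higher. They lie head to head on chromosome II of build ce11, F44E5.4 at 11757107-11759311 on the minus strand and F44E5.5 at 11759662-11761861 on the plus strand, with 350 bp between their starts. The one summit lay in this gap, at position 11759472, 161 bp upstream of F44E5.4 and 190 bp upstream of F44E5.5. It is 14.5 bp from the middle of the gap, so the signal cannot be assigned to either gene. Its sequence on the plus strand, chrII:11759323-11759621, is shown because it holds the densest run of heat shock elements among the members. Capitals mark all 7 matches to TTCNNGAA, a pair of units joined tail to tail, of which 3 read TTCTAGAA.
F44E5.4 and F44E5.5 shared promoter: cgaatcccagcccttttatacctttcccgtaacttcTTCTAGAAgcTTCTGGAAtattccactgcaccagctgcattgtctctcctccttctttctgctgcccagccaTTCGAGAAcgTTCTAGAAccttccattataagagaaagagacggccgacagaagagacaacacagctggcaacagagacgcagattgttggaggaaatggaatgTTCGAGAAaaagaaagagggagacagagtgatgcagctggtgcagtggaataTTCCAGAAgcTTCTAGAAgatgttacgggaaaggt
The TTCTAGAA nearest the summit was centred 27.5 bp from it, and the others were 109.5 and 128.5 bp away. The 2 sides of the gap, each read outward from its own gene, matched at 128 of 164 aligned bases (78.0%).

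The summit of F44E5.4 and F44E5.5 had a signal of 218.3 in replicate 4, where it ranked 55, and of 161.6 in replicate 5, where it ranked 176. In the pooled list its signal was 380.7 and its rank 99. Both replicates placed the summit at the same base. The coding sequences of F44E5.4 and F44E5.5 were identical over all 1935 bases, so reads inside the genes cannot be told apart by sequence. Of the 36 bp words in the gene, 98.2% in F44E5.4 and 97.9% in F44E5.5 occur more than once in the genome. The share was 17.3% in the region between them. No summit of any list lay inside F44E5.4 or F44E5.5. For read length and for reads that map to several places, the settings were not given in the sources used here.

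hsp-1 encodes the constitutive cytosolic Hsp70. The gene lies at IV:17278959-17281330 on the plus strand, and its summit lay at 17278590, 369 bp upstream of the start. The sequence around the summit, chrIV:17278540-17278640, is shown with a GAGA repeat, here read as TCTCTCTC on the plus strand, in capitals.
hsp-1 summit: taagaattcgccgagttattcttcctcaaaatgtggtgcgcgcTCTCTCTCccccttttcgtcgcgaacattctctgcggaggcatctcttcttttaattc
The repeat was centred 3.5 bp from the summit. The only TTCTAGAA of the hsp-1 window was 233.5 bp from the summit and 135.5 bp upstream of the start. The stretch chrIV:17278800-17278847 holds it, in capitals, for comparison with the promoter of F44E5.4 and F44E5.5.
hsp-1 heat shock element: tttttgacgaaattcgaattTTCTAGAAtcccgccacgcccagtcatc
The summit of hsp-1 had a signal of 192.2 (rank 69) in replicate 4 and of 159.1 (rank 183) in replicate 5. The pooled signal was 349.1, at rank 112. The 2 replicate summits were 4 bp apart, and the non-coding RNA gene F26D10.23 lay 88 bp from the pooled summit.

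hsp-3 encodes one of the BiP-like Hsp70 proteins of the endoplasmic reticulum. The gene lies at X:6089028-6092124 on the minus strand, with the summit at 6092188, 64 bp upstream of the start and the closest to a gene start among the bound members. The sequence around the summit, chrX:6092138-6092238 on the minus strand, is shown for what it lacks. No heat shock element of the forms searched lies in it or anywhere in the hsp-3 window.
hsp-3 summit: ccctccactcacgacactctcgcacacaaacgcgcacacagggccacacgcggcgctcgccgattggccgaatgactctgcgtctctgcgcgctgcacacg
It is 66.3% G and C, against a median of 49.5% for regions passing IDR and 41.6% for the other candidates. The signal of hsp-3 was 129.0 (rank 148) in replicate 4 and 164.3 (rank 170) in replicate 5, with 294.0 (rank 145) in the pooled list. The ranks of hsp-3 lay closer together in the replicates than those of hsp-1 or of F44E5.4 and F44E5.5.

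hsp-4, the other BiP-like gene, at II:7350112-7352645 on the minus strand, had no summit in its window in the pooled list or in replicate 4. Replicate 5 had a single summit of signal 18.8 and rank 19152, 89 bp upstream of the hsp-4 start. The coding sequences of hsp-3 and hsp-4 match at 77.7% of aligned bases, yet hsp-3 was bound and hsp-4 was not. The sequence around the replicate 5 summit, chrII:7352684-7352784 on the minus strand, is shown with the core GACGTG of XBP1-type sites, here read as CACGTC, in capitals.
hsp-4 summit of replicate 5: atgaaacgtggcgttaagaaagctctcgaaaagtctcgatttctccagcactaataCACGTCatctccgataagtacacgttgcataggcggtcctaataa
The core was centred 8.5 bp from that summit, and this motif was added after the data were seen. The core does not set hsp-4 apart, since the windows of hsp-3 and hsp-4 each held 2. At hsp-3 the nearest was 64.5 bp from the pooled summit. The windows of hsp-110 and dnj-9 each held 1. Where the summit lies in a promoter window, the core is within 50 bp of it in 3.73% of regions passing IDR and in 3.63% of the other candidates, and 6.66% of 300 bp promoters of all genes hold it. The longer endoplasmic reticulum stress element, with CCAAT and CCACG 9 bases apart, was absent from the windows of all 9 members.

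hsp-6 encodes the mitochondrial Hsp70 and is widely used as a reporter of mitochondrial stress. The gene lies at V:4824124-4826760 on the minus strand. Its highest pooled summit had a signal of 58.5 and a rank of 4451 and did not pass IDR. The replicate values were 21.7 (rank 12180) in replicate 4 and 37.2 (rank 4802) in replicate 5. The 2 replicate summits were 38 bp apart, 381 and 419 bp upstream of hsp-6. The pooled summit also lay 209 bp upstream of C37H5.5, which starts 599 bp away on the other strand, and inside the non-coding RNA genes C37H5.15 and C37H5.16.

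hsp-110 encodes an Hsp110, a nucleotide exchange factor related to Hsp70 itself. It lies at III:8443910-8446909 on the minus strand, 443 bp head to head from rpn-3, a subunit gene of the proteasome. The summit at 8447104 was 195 bp upstream of hsp-110 and 249 bp upstream of rpn-3, so the 2 genes share it. The sequence chrIII:8446955-8447253 on the minus strand is shown with both matches to TTCNNGAA in capitals.
hsp-110 promoter: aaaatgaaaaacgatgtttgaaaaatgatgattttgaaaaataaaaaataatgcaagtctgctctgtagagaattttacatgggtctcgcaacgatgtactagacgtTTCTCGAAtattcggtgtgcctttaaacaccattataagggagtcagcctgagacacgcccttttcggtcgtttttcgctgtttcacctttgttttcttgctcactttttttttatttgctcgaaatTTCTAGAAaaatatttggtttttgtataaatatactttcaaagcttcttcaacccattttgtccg
The element TTCTCGAA was centred 38.5 bp from the summit and TTCTAGAA 88.5 bp from it. The signal of the hsp-110 summit was 107.4 (rank 216) in replicate 4 and 134.9 (rank 249) in replicate 5, with 240.2 (rank 226) in the pooled list. The replicate summits were 37 bp apart, against a median of 26 bp over all bound genes with a summit in both replicates. The non-coding RNA gene C30C11.14 lay 9 bp from the pooled summit.

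dnj-9 encodes a J-domain protein, the class that brings clients to Hsp70. The gene lies at II:4852056-4857820 on the plus strand, with the summit at 4851806, 250 bp upstream of the start. The sequence chrII:4851756-4851856 is shown because, as at hsp-3, no heat shock element of the forms searched lies in it or in the dnj-9 window.
dnj-9 summit: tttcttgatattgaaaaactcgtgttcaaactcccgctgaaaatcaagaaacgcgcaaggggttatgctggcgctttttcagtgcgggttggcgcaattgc
The signal of dnj-9 was 140.6 (rank 125) in replicate 4 and 177.9 (rank 141) in replicate 5, with 335.1 (rank 117) in the pooled list. Another pooled summit of dnj-9, 43 bp upstream of the start, had a signal of 93.7 and a rank of 1486 and did not pass IDR.

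The replicate lists placed these genes as follows. The number of protein-coding genes with a summit among the 1030 highest of a replicate was 560 of 6535 in replicate 4, or 8.57%, and 559 of 6096 in replicate 5, or 9.17%. All 7 bound members were in the top of replicate 4, and 6 were in the top of replicate 5. Of all 598 bound genes, 378 (63.2%) were in the top of both.

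**Figure D1:**
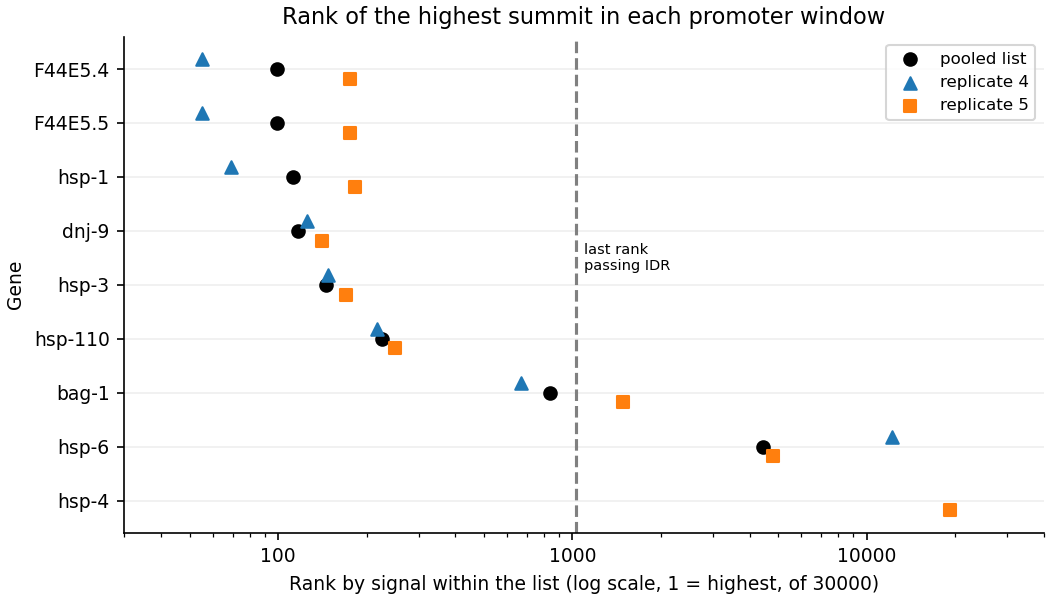
Rank of each gene's highest summit in the pooled list, replicate 4 and replicate 5 (log scale, 1 = highest of 30000), with the last rank passing IDR as a dashed line. The first 6 genes lie left of the line in every list, bag-1 crosses it in replicate 5, and hsp-6 and hsp-4 lie right of it.

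The order of the 4 leading summits differed between the replicates. In replicate 4 the shared summit of F44E5.4 and F44E5.5 ranked first among the members, followed by hsp-1, dnj-9 and hsp-3. In replicate 5 dnj-9 led, followed by hsp-3, the shared summit and hsp-1. The shared summit ranked above hsp-1, and dnj-9 above hsp-3, in both replicates, while the middle neighbours of the pooled order, hsp-1 and dnj-9, changed places. hsp-110, bag-1 and hsp-6 followed in that order in both replicates.

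bag-1, the remaining bound gene, encodes a nucleotide exchange factor of the BAG family. It lies at I:6563629-6564451 on the minus strand, and its summit was 143 bp upstream of the start. The signal was 66.0 (rank 671) in replicate 4 and 59.1 (rank 1485) in replicate 5, outside the 1030 highest of that list. The pooled signal was 121.6 at rank 842, so bag-1 was the member nearest the limit from inside and hsp-6 the nearest from outside. The replicate summits were 4 bp apart. A TTCTAGAA was centred 31.5 bp from the pooled summit of bag-1.

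**Figure D2:**
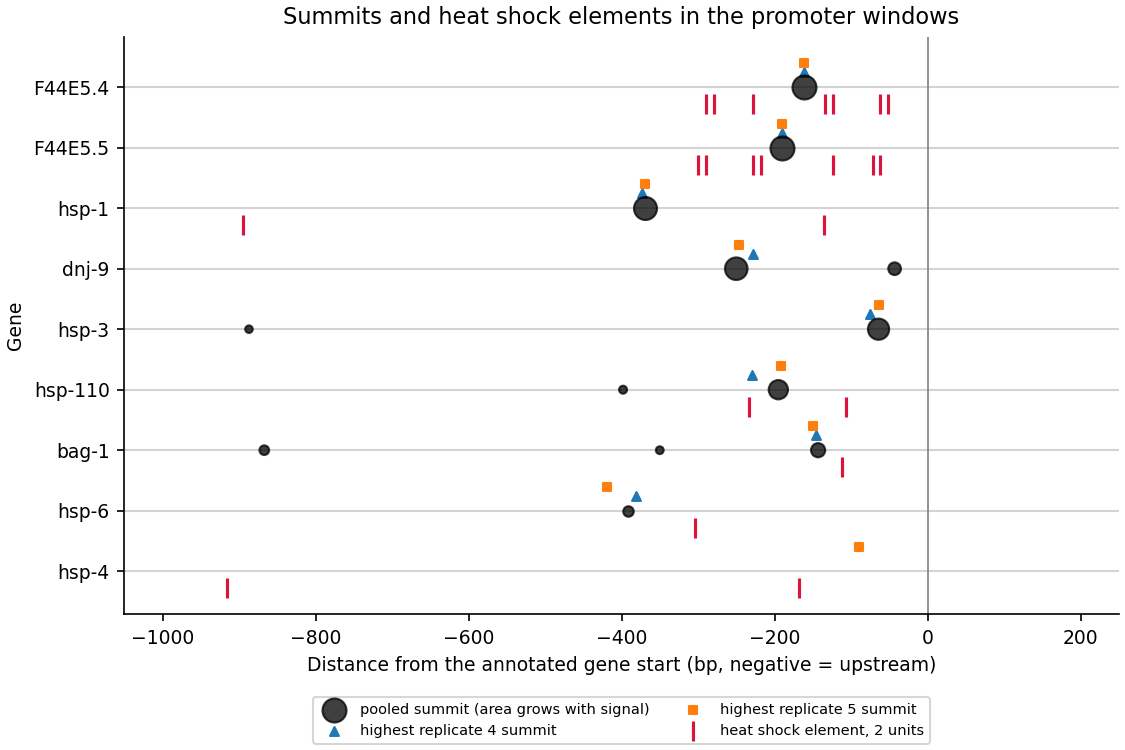
Position of each summit and of each 2-unit heat shock element relative to the annotated gene start (bp, negative upstream), for the 9 genes. Circles are pooled summits with area growing with signal, triangles and squares the highest summits of replicates 4 and 5, and red ticks the elements; F44E5.4 and F44E5.5 have 7 ticks each because they share their promoter, and hsp-3 and dnj-9 have none.

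Within 50 bp of the pooled summit, TTCTAGAA was present at 3 of the 7 bound members, F44E5.4, F44E5.5 and bag-1, which is 2 separate summits. The longer element of 3 alternating GAA and TTC units, 2 bases apart, and the 2-unit TTCNNGAA were each present at 4, adding hsp-110. The same counts held with the summits of either replicate. Among all 976 nuclear regions passing IDR, 13 held TTCTAGAA within 50 bp of the summit (1.33%), against 138 of 28554 other candidates (0.483%). Among summits in a promoter window, as all the members' are, the shares were 1.24% (6 of 482) for regions passing IDR and 0.534% (35 of 6560) for the other candidates. In promoter windows the 3-unit element was in 1.45% of regions passing IDR and in 0.808% of the other candidates. The 2-unit element ran the other way, in 4.56% of regions passing IDR and in 5.66% of the other candidates. The regions passing IDR include the members' own summits, so these shares are not independent of the members. Of the 6 promoter-window regions with TTCTAGAA, 2 are members' summits. The summits of hsp-110, bag-1 and the pair F44E5.4 and F44E5.5 are among the 7 with the 3-unit element. Shares without the members were not computed. In 300 bp promoters of all genes, 2.12% hold TTCTAGAA, 1.97% the 3-unit and 18.9% the 2-unit element. A GAGAGAGA, as at hsp-1, was in 3.73% (18 of 482) of the promoter-window regions passing IDR and in 1.92% (126 of 6560) of the other candidates there, and over all regions in 6.66% of those passing IDR and in 1.70% of the others. These motifs were searched on both strands and overlap one another, and a match describes letters and not a site.

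**Figure D3:**
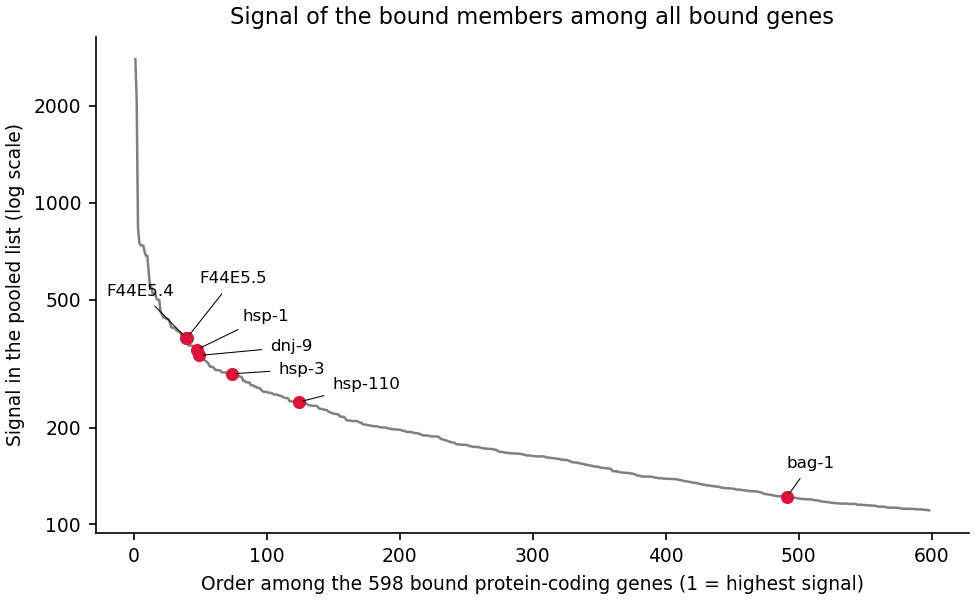
Pooled signal of all 598 bound genes in falling order (log scale), with the 7 bound members in red. F44E5.4 and F44E5.5 to hsp-110 stand among the higher part of the curve, at signals of 240.2 to 380.7, and bag-1 at 121.6 near its low end.

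The wider system was described by 7 gene lists, 92 genes of which matched the annotation. Of these 92 genes, 56 had a pooled candidate. Through 13 separate summits, 14 were bound, a share of 25% of those with a candidate, beside 9.68% over all genes. The median highest signal of the 56 genes was 64.0, beside 41.2 over all genes with a candidate. The lists were written with earlier results of these data known, so these values describe the lists only and were not tested. Among 29 other J-domain genes, 17 had a candidate and 3 were bound. These were dnj-13 (signal 297, rank 138), dnj-19 (161) and dnj-14 (154), each sharing its summit with another gene. Of 5 other genes of the Hsp70 superfamily, 3 had a candidate and 0 were bound. The highest of them were stc-1 with a signal of 92.1 and hsp-70, a heat-inducible Hsp70 gene, with 82.1.

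Exchange factors and partners of Hsp70 and Hsp90 gave 3 bound genes of 12 with a candidate, beside 9.68% over all genes with one. So few genes give no result about this list. unc-23, a BAG domain gene, had a signal of 265 and a 2-unit element near its summit, and C34C12.8, a GrpE-type exchange factor gene, a signal of 241. enpl-1, the endoplasmic reticulum Hsp90 gene, had a signal of 152 and shares its summit with another gene. The cytosolic hsp-90 was not bound, with a signal of 49.1.

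The endoplasmic reticulum list had 5 bound genes of 10 with a candidate and the mitochondrial list 3 of 6, beside 9.68% over all genes with one. The sensor gene atf-6 (207), the calreticulin gene crt-1 (195), the disulfide isomerase genes pdi-6 (186) and pdi-2 (145) and the transcription factor gene xbp-1 (141) were the bound ones of the endoplasmic reticulum. xbp-1 had no summit in its window in replicate 4. In mitochondria, the chaperonin gene hsp-60 and the cochaperonin gene Y22D7AL.10 shared a summit of signal 435 and rank 80 in the pooled list, above each of the 9 Hsp70 and cochaperone genes there and in replicate 5. In replicate 4 that summit ranked 64, below the shared summit of F44E5.4 and F44E5.5 at 55. clpp-1, a protease gene, had 118. No pooled candidate was found for hsf-1 or for the other 4 genes of heat shock transcription, beside 30.9% of all nuclear protein-coding genes with one. Of 8 small heat shock protein genes with a candidate, 0 were bound, beside 9.68% over all genes with a candidate. Among these genes hsp-16.2 and hsp-16.41 share a summit. Counts among so few, of 0 or above, are no result about these genes.

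**Figure D4:**
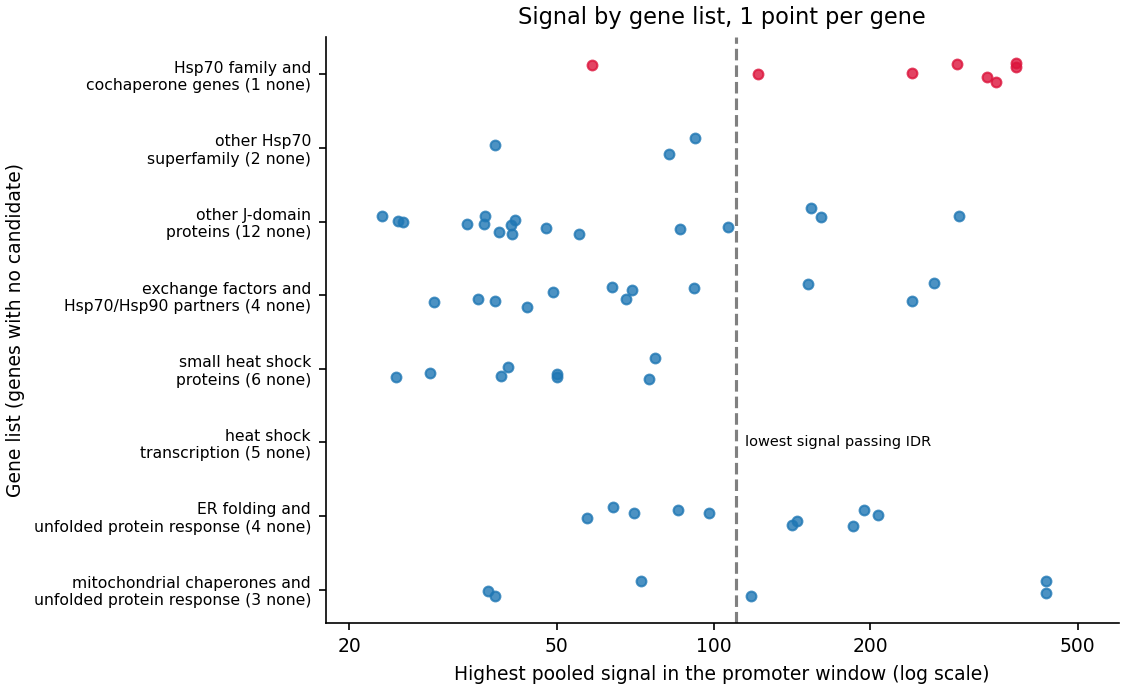
Highest pooled signal in the promoter window (log scale), 1 point per gene, for the 9 Hsp70 and cochaperone genes in red and the 7 lists in blue, with the lowest signal passing IDR as a dashed line. Genes with no candidate are counted in each label. Red points lie right of the line in 7 cases, against 14 blue points over all lists.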

How the data were processed

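The data are GEI-17::GFP ChIP-seq regions from 2 biological replicates of 1 group. The authors deposited region lists for each replicate, for the pooled alignments and for the regions passing IDR, and each summit has a signal whose scale is not stated. The authors also deposited a −log10 column, which has a ceiling in each list and was not used. The build is ce11, per the labels. Chromosome lengths were compared with the reference, in which every region fits. No caller, caller version or cutoff for IDR is given in the sources used here.

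From these files, summits were ranked by signal, mapped to starts of Ensembl release 115 protein-coding genes (1000 bp upstream to 200 bp downstream) and searched for motifs within 50 bp in the RefSeq sequence of the same build, with Python 3.11.15, numpy 2.4.6, pandas 2.3.3 and Biopython 1.88. The steps were tested on simulated data. The members and the lists were chosen with earlier results of these data known, so no test was run. The named genes are the 9 members, genes sharing their summits, the bound genes of the lists and, added after the values were seen, unbound list genes. Alternatives changed the threshold, window, gene start and motif setting, or left out a replicate. Depth is unknown, so no interval was given.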

Additional observations from a re-analysis of the deposited data

How the results depend on the processing

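With 1 replicate left out, bound meant a summit among the 1030 highest of the other replicate's own list, in place of passing IDR. The number of bound members was 7, and 6 to 7 when 1 replicate was left out, with bag-1 lost without replicate 4. It was 6 with only the 515 highest summits, again without bag-1, and 7 with 2060. With each summit given only to its nearest gene start the count was 6, and F44E5.5 was lost. Other windows and any transcript start gave 7. Of the list genes 14 were bound, and 9 under the stricter and 21 under the looser threshold, with 15 to 16 when 1 replicate was left out. The share of all genes bound was 9.68%, and 5.07% under the stricter and 17.3% under the looser threshold, by construction, with 8.57 to 9.17% when 1 replicate was left out. The count of bound members with TTCTAGAA was 3, and 0 within 25 bp, where the nearest element lay 27.5 bp away, and 4 within 100 bp. With the summits of either replicate alone it stayed 3 among the same 7 members. That count includes bag-1, which was not bound without replicate 4. The median rank of the bound members was 117, and 125 to 176 when 1 replicate was left out. No paired analysis was possible because the labels give 1 group only. Depth and the treatment of repeated sequence, which touch F44E5.4 and F44E5.5 most, limit these values.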

Other observations

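Among the genes of the lists, a TTCTAGAA near the highest summit was found at a few inducible genes of the heat shock response, none of them bound. Of the 56 list genes with a candidate, 3 held TTCTAGAA within 50 bp of their highest summit, at 2 separate summits, and 0 of the 14 bound ones did, through 13 summits. The share over all promoter-window regions passing IDR was 1.24%, so a count of 0 among so few is no result about these genes. hsp-70 had a signal of 82.1 and a rank of 1983 in the pooled list, with ranks of 1154 in replicate 4 and 5104 in replicate 5. The small heat shock protein genes hsp-16.2 and hsp-16.41 shared a summit of signal 49.97 and rank 6554, with ranks of 8675 in replicate 4 and 1155 in replicate 5. The 2 replicates thus differed in opposite directions at these summits.

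Inside the genes, 7 of the 9 members held a pooled summit and 0 held one that passed IDR. Over all 19973 protein-coding genes, 38.9% held a pooled summit and 1.41% one that passed IDR, so the count of 0 is near the background. The median gene length was 2534 bp for the members and 2027 bp for all genes, and whether length bears on these counts was not tested. The highest pooled summits inside the members were in hsp-1 (signal 93.5), hsp-6 (80.9), hsp-3 (77.5) and hsp-110 (71.8). hsp-4, with no pooled candidate in its promoter window, held a summit of signal 55.6 and rank 5036 at 724 bp into the gene. hsp-6 likewise had a higher signal inside the gene than in its promoter window, where it was 58.5.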
